A study of Mus musculus with 19 samples.

Results

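Kupffer cells of embryonic origin (em-KCs), the resident macrophages of the liver sinusoids, were arrayed from mice of 2 origins within one series, and the comparison of these origins is described here. It used 7 of the 19 arrays. The WT side holds the 3 arrays titled as embryonic WT Kupffer cells, from adult WT mice. The colony side holds 4 untreated em-KC arrays from the colony in which KC-DTR mice are bred, of which 3 came from KC-DTR mice and 1 from a WT littermate, none of them given diphtheria toxin (DT).

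KC-DTR mice carry a cassette with YFP and the human DT receptor in the Clec4f gene, so that DT ablates their Kupffer cells, and the study used them to follow the replacement of em-KCs by monocyte-derived KCs (mo-KCs). All mice were on a C57Bl/6 background and 6 to 12 weeks old. The methods name a commercial supplier for wild-type mice, but the genotype label of the 3 WT arrays is the same as that of the WT littermates, so whether they were bred with the colony is not settled. Cells were sorted as live CD45+ Clec4F+ macrophages from perfused livers digested with collagenase A and DNase, and 1 array (Affymetrix GeneChip Mouse Gene 1.0 ST) was hybridised per sample. Arrays of 1 group are named as biological replicates, and p-values measure the spread between these samples only.

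Sex-linked genes separated the 2 sides completely. Xist, the RNA that coats the inactive X chromosome of female cells, was 9.06, 9.21 and 8.72 on the log2 scale in the WT arrays, 4.53, 4.34 and 4.16 in the KC-DTR arrays and 4.26 in the untreated littermate. Eif2s3y, a Y-linked translation factor, was 3.68, 3.73 and 4.28 in the WT arrays, 7.99, 7.93 and 7.77 in the KC-DTR arrays and 7.82 in the littermate. The WT arrays thus had the high Xist and low Y-linked levels of female cells and the 4 colony arrays the opposite. Sex is not given per sample, the methods state that both sexes were used, and the day of sorting and of hybridisation is not given in the sources used here. Origin, this sex-linked pattern and any difference in handling therefore cannot be told apart in any of the results that follow.

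Macrophages taken out of a tissue by enzymes and a sorter meet warmth, shear and loss of contact, and immediate-early genes are the class that answers such stimuli first. They encode mostly transcription factors of the AP-1 and EGR families, need no new protein to be switched on, and are known to be induced during tissue digestion. Hepatocytes are by far the bulk of the liver, and their abundant secretory messengers are a known passenger in preparations of other liver cells. Kupffer cells are not known to make albumin or the drug-metabolising cytochromes P450.

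The identity of the cells was checked on the markers of Kupffer cells. Clec4f, the lectin used for the sort, was 12.42, 12.48 and 12.60 in the WT arrays, 12.39, 12.17 and 12.36 in the KC-DTR arrays and 12.61 in the littermate, so the 3 KC-DTR arrays, whose Clec4f gene carries the cassette, lay below the WT arrays and the littermate above them. The 95% confidence interval (CI) of the Clec4f difference, WT minus colony, ran from -0.15 to 0.38 on the log2 scale. Vsig4, a complement receptor that catches blood-borne bacteria, differed by 0.10 (CI -0.10 to 0.31). Timd4, a receptor for dying cells that mo-KCs gained gradually in the study, differed by -0.01 (CI -0.26 to 0.23). Adgre1, a macrophage surface receptor, differed by 0.00 (CI -0.22 to 0.22). Its protein was also used for the sort, so its high level, like that of Clec4f, was selected for. Cd5l, a secreted scavenger protein, differed by 0.13 (CI -0.07 to 0.32) and Csf1r, the receptor for the macrophage growth factor, by -0.03 (CI -0.24 to 0.18). The intervals of these 6 genes lay within 1.5-fold, and Timd4, the dimmest of them, had means of 11.90 and 11.91. Clec1b, the other gene of this marker set, was called lower in WT and is given with the identity genes below.

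Across the genome the 2 origins differed widely. Of 19938 genes tested with limma, 2174 (10.9%) passed an adjusted p of 0.05, of which 785 (3.94%) were higher and 1389 (6.97%) lower in the WT em-KCs. At least 2-fold differences were carried by 153 of the higher and 134 of the lower genes, and at least 4-fold differences by 35 and 18. The 3 WT and 4 colony arrays did not overlap for 2161 of the called genes, and for 5056 (25.4%) of all genes, of which 13.3% lay higher and 12.0% lower in WT as a share of all genes. The confidence interval of 13559 genes (68.0%) lay within 1.5-fold, and the median difference over all genes was 0.04. Leaving out KC-DTR replicate 1, 2 or 3 or the littermate array lowered the count to 1353, 1342, 1116 and 1440. Centring the arrays on housekeeping genes, of which 3 of 12 were themselves lower in WT, moved the median of all genes to 0.17 and turned the split to 2205 higher and 895 lower, so small differences have no settled sign.

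**Figure D1:**
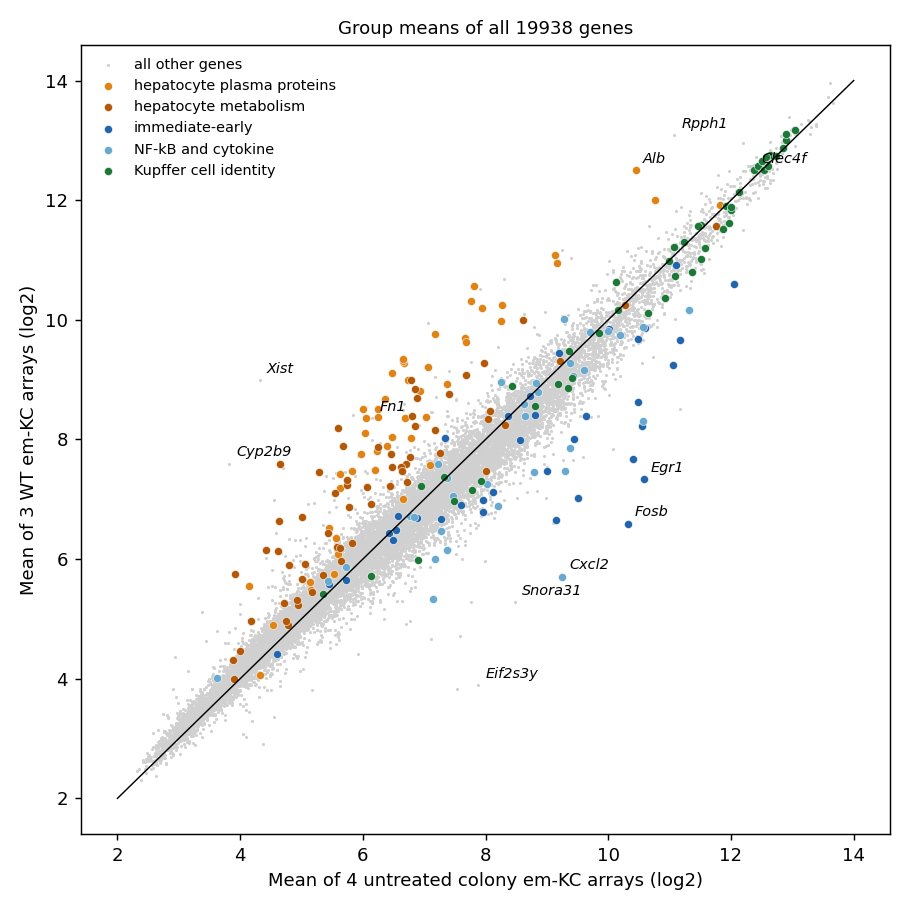
Mean log2 expression of the 4 untreated colony em-KC arrays (horizontal) against the 3 WT em-KC arrays (vertical), 1 point per gene for 19938 genes, with 5 gene lists in colour and the line of equal level. Of the 110 hepatocyte genes 105 lie above the line and 5 below it, most immediate-early and several cytokine genes lie below it, and the Kupffer cell identity genes lie along it (median difference -0.01).

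Most immediate-early genes had lower levels in the WT em-KCs. Of 36 such genes, all measured, 21 were called lower and 1 higher, against 6.97% and 3.94% of all genes, and their median difference was -0.72 against 0.04 over all genes. The mean over the list was 7.68, 7.82 and 7.80 in the WT arrays and 8.61 to 8.95 in the colony arrays. The AP-1 genes Fosb, Fos, Jun and Atf3 and the EGR genes Egr1 and Egr2 led the list.

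Fosb, which encodes an AP-1 subunit, was 7.02, 6.48 and 6.28 in the WT arrays, 10.23, 10.61 and 10.20 in the KC-DTR arrays and 10.22 in the untreated littermate. Every colony array, the littermate included, lay above every WT array, and the difference of -3.72 (SE 0.18, adjusted p = 7.9e-06, limma) corresponds to a 13.2-fold lower level. Fos, the classical partner of Jun, was 7.77, 7.59 and 7.66 in the WT arrays, 10.48, 10.56 and 10.19 in the KC-DTR arrays and 10.35 in the littermate. Its arrays were tight on both sides and differed by -2.72 (SE 0.12, adjusted p = 4.0e-06), or 6.6-fold. Egr1, a zinc-finger factor induced by growth factors and stress, was 7.14, 7.25 and 7.61 in the WT arrays, 10.51, 10.93 and 10.34 in the KC-DTR arrays and 10.53 in the littermate, a gap of -3.24 (SE 0.16, adjusted p = 7.9e-06). None of the 3 genes had a colony array within 2 log2 units of its WT arrays.

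The other leading genes behaved alike. Ier2, a short-lived nuclear protein gene, ranged over 6.39 to 6.98 in the WT arrays and 8.77 to 9.56 in the colony arrays and differed by -2.51 (SE 0.20, adjusted p = 1.3e-04). Egr2 was more variable, with 6.38, 7.67 and 7.03 in the WT arrays, 9.18, 10.34 and 9.35 in the KC-DTR arrays and 9.19 in the littermate (-2.49, SE 0.34, adjusted p = 0.0024). KC-DTR replicate 2 was the highest of the colony arrays for Egr2, and WT replicate 2 the highest of the WT arrays, without overlap. Btg2, an antiproliferative gene induced with them, differed by -2.32 (SE 0.19, adjusted p = 1.7e-04), Atf3, a stress-responsive AP-1 relative, by -1.86 (SE 0.18, adjusted p = 4.0e-04) and Jun by -1.81 (SE 0.15, adjusted p = 1.7e-04). The remaining 13 called lower genes ranged from -1.53 for the orphan receptor Nr4a1 to -0.58 for Junb, and included the messenger-destabilising Zfp36 (-1.51), the phosphatase gene Dusp1 (-1.46) and Klf4 (-1.17).

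Promoters of 3 of these genes, of a heat shock gene and of a hepatocyte gene are shown as examples. Each was picked because it holds the letters of a known response motif, given in capitals. For Egr2, 1 of its 5 promoters is shown. The windows hold the 250 bases before and the 50 bases after a RefSeq transcript start in GRCm38.p6, printed 5′ to 3′ on the strand of the gene. Capitals mark a CArG box, bound by serum response factor, in Egr2 at chr10:67537316-67537615 (plus strand), TGACG, the core of the cAMP response element, in Fos at chr12:85473640-85473939 (plus strand), the full element TGACGTCA in Btg2 at chr1:134079106-134079405 (minus strand), a heat shock element GAANNTTC in Hspa1a at chr17:34972107-34972406 (minus strand), and GTTAAT, the core bound by HNF1, in Alb at chr5:90460620-90460919 (plus strand).
Egr2: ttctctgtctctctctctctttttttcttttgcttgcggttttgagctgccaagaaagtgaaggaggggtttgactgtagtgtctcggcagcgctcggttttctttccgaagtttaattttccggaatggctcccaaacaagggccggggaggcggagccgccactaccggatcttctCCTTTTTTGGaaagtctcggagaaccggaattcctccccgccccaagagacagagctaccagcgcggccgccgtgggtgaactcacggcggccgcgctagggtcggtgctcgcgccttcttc
Fos: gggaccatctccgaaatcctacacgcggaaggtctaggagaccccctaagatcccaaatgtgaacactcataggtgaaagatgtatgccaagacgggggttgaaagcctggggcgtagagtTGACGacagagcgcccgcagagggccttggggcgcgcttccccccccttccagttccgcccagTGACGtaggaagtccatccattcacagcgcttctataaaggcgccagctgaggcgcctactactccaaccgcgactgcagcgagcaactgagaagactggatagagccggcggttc
Btg2: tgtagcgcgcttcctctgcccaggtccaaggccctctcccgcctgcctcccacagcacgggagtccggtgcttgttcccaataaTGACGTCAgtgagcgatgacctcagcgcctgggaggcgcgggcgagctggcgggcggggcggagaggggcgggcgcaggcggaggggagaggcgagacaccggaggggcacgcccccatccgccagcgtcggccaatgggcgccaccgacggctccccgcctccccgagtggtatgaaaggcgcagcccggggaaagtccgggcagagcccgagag
Hspa1a: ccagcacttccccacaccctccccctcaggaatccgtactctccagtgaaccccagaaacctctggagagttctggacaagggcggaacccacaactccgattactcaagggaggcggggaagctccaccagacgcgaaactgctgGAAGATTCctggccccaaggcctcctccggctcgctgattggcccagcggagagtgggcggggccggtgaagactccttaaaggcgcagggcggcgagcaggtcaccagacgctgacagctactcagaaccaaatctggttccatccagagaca
Alb: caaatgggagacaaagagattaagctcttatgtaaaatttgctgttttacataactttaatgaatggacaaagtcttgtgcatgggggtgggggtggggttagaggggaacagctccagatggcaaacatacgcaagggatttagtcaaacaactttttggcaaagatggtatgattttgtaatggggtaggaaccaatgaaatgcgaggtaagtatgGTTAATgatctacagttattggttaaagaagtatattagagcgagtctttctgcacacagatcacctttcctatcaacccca

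Promoters were found for 30 of the 36 immediate-early genes, 44 windows in all, and both strands were searched. TGACG was in 25 of the 44 windows (56.8%) against 20.8% of 32851 promoters of the same length, and the genes holding it included Fosb, Fos, Atf3, Junb and Nr4a1 among those called lower and Klf2, Nr4a2 and Nr4a3 among those not called. The full TGACGTCA, which contains TGACG, was in 3 windows (6.82% against 1.79%), those of Btg2, Dusp1 and Maff. The CArG box was in 6 windows (13.6% against 1.63%), of Egr2, Zfp36 and Dusp5, the last of which differed by 0.01 (CI -0.28 to 0.31) and was not called. TGACG was also in windows of heat shock genes, 11 of 20 (55%), and was in 9 of 34 (26.5%) of the cytokine and NF-kB list. In heat shock genes GAANNTTC was in 10 of 20 windows against 7.86% of all, and GTTAAT was in 11 of 46 windows of hepatocyte secreted proteins, Alb, F2, Fga, Fgb and Vtn among them, against 7.1%. These are counts of letters in the windows and not of bound sites.

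Not all immediate-early genes took part. Fosl2, an AP-1 subunit, was higher in the WT em-KCs by 0.68 (SE 0.14, adjusted p = 0.015), although the call was lost without KC-DTR replicate 3. The other 14 genes were not called, and 11 of the 36 had a confidence interval within 1.5-fold. Klf2 differed by -0.000701 (CI -0.25 to 0.25), Jund, which is expressed constitutively in many cells, by 0.01 (CI -0.21 to 0.24), Nr4a2 by -0.09 (CI -0.36 to 0.18) and Myc by -0.18 (CI -0.49 to 0.14). Nr4a1 was called lower at -1.53 while its relatives Nr4a2 and Nr4a3 (-0.19, CI -0.58 to 0.21) were not, and Egr1 and Egr2 were called while Egr3 (0.15, CI -0.15 to 0.46) was not. The differences between these relatives were not tested.

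Beside the immediate-early genes, the same 7 arrays differed in hepatocyte genes, higher in WT, and in the sex-linked genes given above. Genes of endothelium, the other cell type rich in the digest, gave a list mean of 8.62 to 9.40 in the WT arrays and 9.21 to 9.71 in the colony arrays, with 0 of 25 genes called by limma, 8 at an unadjusted p under 0.05 and 2 not overlapping, lower in WT. Of all 19938 genes, 5571 had an unadjusted p under 0.05 and 12.0% did not overlap with WT lower. The part of these in the immediate-early difference was not tested. Leaving out any 1 of the 7 arrays gave counts of 17 to 20 genes called lower, and centring the arrays on housekeeping genes gave 18.

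**Figure D2:**
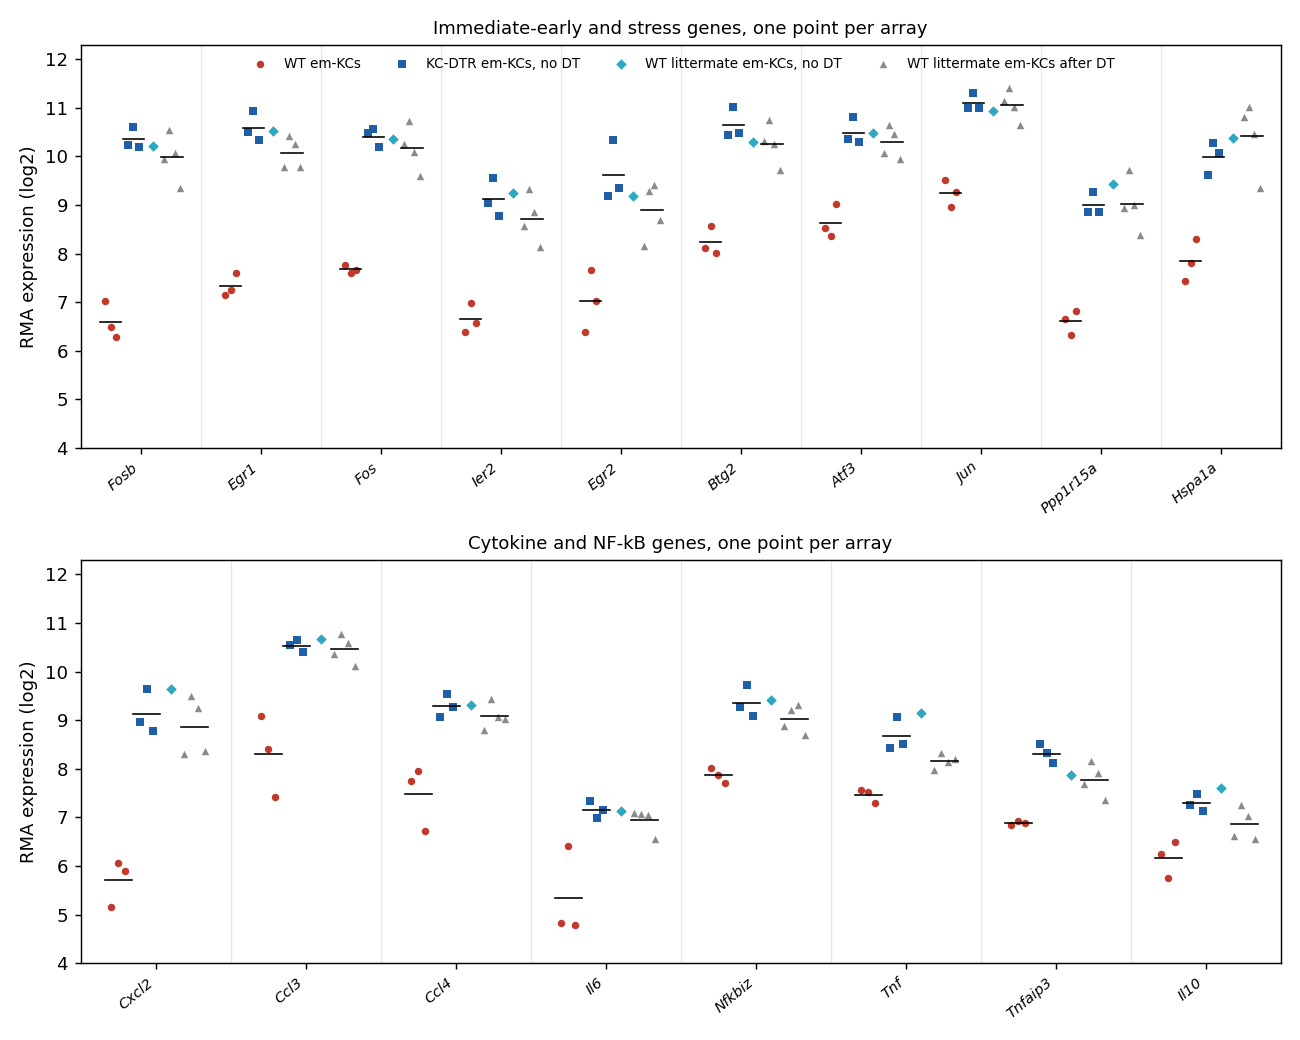
RMA expression (log2) of immediate-early, stress, cytokine and NF-kB genes, 1 point per array, with the group mean as a line where a group has over 1 array. For every gene drawn the 3 WT em-KC arrays (red) lie below the 3 KC-DTR arrays (dark blue) and the untreated littermate (light blue). The 4 WT littermates after DT are in grey.

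Cytokine genes and regulators of NF-kB, which macrophages switch on within the same period, showed a similar but less uniform picture. Of 33 measured genes of 34, 14 (42.4%) were called lower and 3 (9.09%) higher in the WT em-KCs, against 6.97% and 3.94% of all genes, with a median difference of -0.36. Cxcl2, a neutrophil chemoattractant, was 5.16, 6.05 and 5.90 in the WT arrays, 8.96, 9.64 and 8.77 in the KC-DTR arrays and 9.64 in the littermate. The lowest colony array lay far above the highest WT array, and the difference of -3.55 (SE 0.27, adjusted p = 1.0e-04, limma) was 11.7-fold. The chemokine gene Ccl3 was 9.08, 8.40 and 7.43 in the WT arrays, 10.55, 10.66 and 10.40 in the KC-DTR arrays and 10.67 in the littermate (-2.27, SE 0.31, adjusted p = 0.0024). Here the colony arrays lay close together while the WT arrays spread widely, with replicate 1 the highest and replicate 3 the lowest.

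Ccl4, whose protein shares its receptor with that of Ccl3, differed by -1.82 (SE 0.26, adjusted p = 0.003). Il6, an inducer of acute-phase proteins in hepatocytes, was 4.83, 6.41 and 4.78 in the WT arrays, 7.34, 6.98 and 7.15 in the KC-DTR arrays and 7.12 in the littermate, a difference of -1.81 (SE 0.34, adjusted p = 0.011). WT replicate 2 lay well above the other WT arrays for Il6 but still below the colony arrays. Nfkbiz, which directs NF-kB to secondary targets, differed by -1.51 (SE 0.15, adjusted p = 5.0e-04), Tnf by -1.33 (SE 0.19, adjusted p = 0.0029), Tnfaip3, a feedback inhibitor of NF-kB, by -1.31 (SE 0.14, adjusted p = 9.1e-04) and the anti-inflammatory cytokine gene Il10 by -1.21 (SE 0.18, adjusted p = 0.0039). Il1b (-1.16), Ccl12 (-1.17), Cxcl1 (-0.77) and Il1a (-0.68) were also called lower. The inducible enzyme gene Ptgs2 differed by 0.19 (CI -0.15 to 0.53), Cxcl10 by -0.09 (CI -0.35 to 0.17) and Icam1 by -0.03 (CI -0.31 to 0.26), none of them called.

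The 3 genes of this list called higher in WT were Cd83 (0.73), a costimulatory membrane protein gene, Bcl3 (0.71), a nuclear partner of NF-kB, and Nfkbie (0.36), an NF-kB inhibitor. Their count depended on single arrays, since without WT replicate 2 or KC-DTR replicate 3 it was 0, without WT replicate 3 it was 4 and without any other array it was 1. The count of lower genes was 12 or 13 without any 1 array.

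Some heat shock genes were lower in the WT em-KCs. Hspa1a, the inducible HSP70 chaperone, was 7.44, 7.80 and 8.30 in the WT arrays, 9.61, 10.27 and 10.06 in the KC-DTR arrays and 10.38 in the littermate, and all WT arrays lay below all colony arrays (-2.24, SE 0.23, adjusted p = 5.3e-04, limma). Its near-identical copy Hspa1b may share probes with it. Of 16 measured heat shock genes 5 (31.2%) were called lower and 0 higher, against 6.97% and 3.94% of all genes (median difference -0.26), the others being Hsp90aa1 (-0.79, SE 0.12, adjusted p = 0.0046), Dnajb4 (-0.73), Hspd1 (-0.55) and Dnaja1 (-0.48), and without WT replicate 3 or KC-DTR replicate 3 the count was 3. The HSP40 gene Dnajb1 had 0.28 with a wide interval (-0.51 to 1.07), and Bag3 and Hspb1 were not called. In the unfolded protein response 2 of 19 genes were lower and 1 (5.26%) higher, shares near the 6.97% and 3.94% of all genes. The lower genes were Ppp1r15a and Atf4 (-0.49, adjusted p = 0.032), and the higher one was Sdf2l1 (0.46, adjusted p = 0.037). Atf4 lost its call without 5 of the 7 arrays taken singly and Sdf2l1 without 6 (adjusted p up to 0.081 and 0.097). Ppp1r15a, which restores translation after stress, was 6.66, 6.33 and 6.82 in the WT arrays, 8.85, 9.27 and 8.86 in the KC-DTR arrays and 9.43 in the littermate (-2.50, SE 0.18, adjusted p = 6.1e-05), whereas the chaperone Hspa5 (-0.07, CI -0.31 to 0.17), Xbp1 (0.06, CI -0.19 to 0.31) and Dnajb9 (-0.10, CI -0.46 to 0.27) were not called.

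Hepatocyte transcripts were higher in the WT em-KCs. Of 110 measured genes of 117 on the lists of secreted proteins and metabolism, 78 were called higher and 0 lower, against 3.94% and 6.97% of all genes. The median difference was 1.78 over 49 genes of secreted plasma proteins and 0.91 over 61 metabolic genes. The mean over both lists together was 7.67 to 7.77 in the WT arrays and 6.32 to 6.55 in the colony arrays. In RNA of sorted cells, more hepatocytes or their fragments and more hepatocyte RNA per cell cannot be told apart.

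Alb, the most abundant plasma protein, was 12.41, 12.56 and 12.52 in the WT arrays, 10.71, 11.08 and 10.22 in the KC-DTR arrays and 9.76 in the littermate. The WT arrays lay close together and above all colony arrays, which varied more and had the littermate lowest (2.05, SE 0.26, adjusted p = 0.0019, limma, 4.14-fold). Ahsg, the fetuin-A carrier protein, was 10.57, 10.63 and 10.49 in the WT arrays, 8.06, 8.11 and 7.66 in the KC-DTR arrays and 7.39 in the littermate, with the largest difference of the secreted proteins (2.76, SE 0.17, adjusted p = 3.1e-05). Kng1, the precursor of bradykinin, was 9.36, 9.41 and 9.28 in the WT arrays, 6.86, 6.71 and 6.60 in the KC-DTR arrays and 6.44 in the littermate (2.70, SE 0.12, adjusted p = 4.0e-06). For each of these the littermate array was the lowest of all 7.

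Coagulation, protease inhibitor and lipoprotein genes were all represented. Prothrombin (F2) differed by 2.62 (SE 0.20, adjusted p = 8.8e-05), plasminogen (Plg) by 2.65 (SE 0.17, adjusted p = 4.1e-05), the inter-alpha-trypsin inhibitor family member Itih4 by 2.67 (SE 0.15, adjusted p = 1.6e-05) and Ambp, the precursor of alpha-1-microglobulin and bikunin, by 2.59 (SE 0.17, adjusted p = 5.1e-05). Apoc3, an apolipoprotein of triglyceride-rich particles, differed by 2.56 (SE 0.25, adjusted p = 4.6e-04), Fetub by 2.50 (SE 0.14, adjusted p = 1.6e-05) and Apoa1, the main protein of HDL, by 1.95 (SE 0.23, adjusted p = 0.0013). The fibrinogen genes Fga, Fgb and Fgg differed by 1.57, 1.99 and 2.04. Hamp, the iron-regulating hormone hepcidin, differed by 1.73 (SE 0.17, adjusted p = 4.6e-04).

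Secreted protein genes that did not pass were Saa4 (-0.26), Trf (0.11, CI -0.10 to 0.32), C8a (0.22), Saa2 (0.33, CI -0.51 to 1.17), Saa1 (0.36, CI -0.97 to 1.68), C8b (0.36), Igfbp1 (0.47), Cp (0.48) and C9 (0.50). Trf, the plasma iron carrier transferrin, thus kept within 1.5-fold while Alb differed 4.14-fold. The acute-phase genes Saa1 and Saa2 had wide intervals, in contrast to the acute-phase haptoglobin gene Hp (1.95, CI 1.24 to 2.66), and the difference between them was not tested.

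Among metabolic genes the cytochrome P450 Cyp1a2, an enzyme of the pericentral lobule, was 7.51, 7.92 and 7.36 in the WT arrays, 4.68, 4.69 and 4.43 in the KC-DTR arrays and 4.78 in the littermate (2.95, SE 0.15, adjusted p = 7.9e-06, limma). Both sides were tight and 7.74-fold apart. Cyp2e1, another pericentral P450, differed by 1.81 (SE 0.13, adjusted p = 7.5e-05) and Cyp7a1, the rate-limiting enzyme of bile acid synthesis, by 1.84 (SE 0.11, adjusted p = 3.0e-05). The colony mean of Cyp7a1, 3.92, lay near that of the Y-linked Eif2s3y in the WT arrays (3.90), so the exact size of this difference is uncertain. Of genes more abundant around the portal vein, Cps1, the first enzyme of the urea cycle, was 8.82, 9.21 and 8.95 in the WT arrays, 7.14, 6.71 and 6.66 in the KC-DTR arrays and 6.61 in the littermate (2.21, SE 0.15, adjusted p = 5.6e-05), and Pck1, of gluconeogenesis, differed by 2.22 (SE 0.28, adjusted p = 0.0019). Cyp2d26 (2.60), the carboxylesterase Ces1d (2.18), Cyp4a14 (2.01) and Mat1a (2.00), which makes the methyl donor SAM, were higher too. Genes of both lobule zones were therefore among the called genes.

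Not all metabolic genes were higher. Fabp1, the liver fatty acid-binding protein, had 9.63, 10.96 and 10.17 in the WT arrays, 10.58, 10.09 and 10.48 in the KC-DTR arrays and 9.95 in the littermate, and the 2 sides overlapped (-0.02, CI -0.65 to 0.61). Glul, glutamine synthetase, which macrophages also express, differed by -0.19 (CI -0.42 to 0.04) and Scp2 by -0.53 (CI -0.86 to -0.19), neither called. The urea cycle genes Otc (0.65, CI 0.12 to 1.18) and Arg1 (0.58, CI 0.13 to 1.03) were not called although Cps1 was. With every array left out in turn, 72 to 79 genes of both lists were called higher and 0 or 1 lower.

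**Figure D3:**
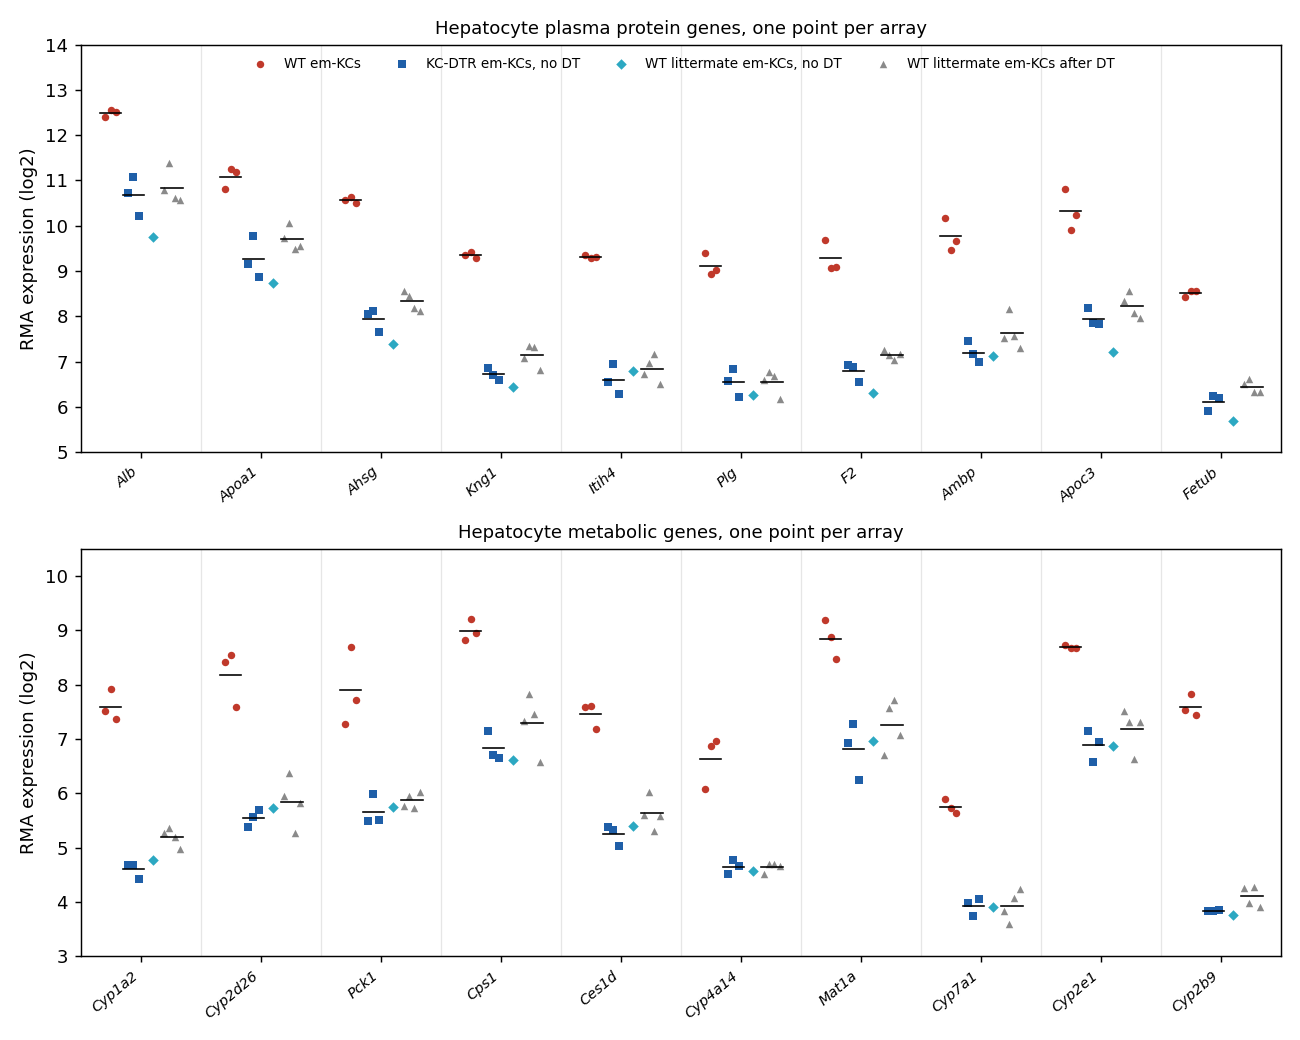
RMA expression (log2) of hepatocyte plasma protein genes and metabolic genes, 1 point per array, with the group mean as a line where a group has over 1 array. The 3 WT em-KC arrays (red) lie above all other arrays drawn for every gene, and Cyp2b9, a female-biased P450, ranged from 3.77 to 3.85 in the 4 untreated colony arrays.

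Hepatocyte genes that differ between the sexes of adult mice were described separately. Cyp2b9, a P450 expressed in female liver, was 7.53, 7.82 and 7.44 in the WT arrays, 3.84, 3.83 and 3.85 in the KC-DTR arrays and 3.77 in the littermate. At 3.78 (SE 0.11, adjusted p = 3.1e-07, limma) its difference exceeded those of Cyp1a2 and of Ahsg, the largest of the 2 hepatocyte lists. The colony values lay near those of the Y-linked Eif2s3y in the WT arrays (mean 3.90). The exact size and rank of the Cyp2b9 difference are therefore uncertain. Of 12 measured female-biased genes 4 (33.3%) were called higher and 0 lower, against 3.94% and 6.97% of all genes, the others being A1bg (1.26, SE 0.21, adjusted p = 0.0068), Cyp3a44 (1.10, SE 0.23, adjusted p = 0.017) and Cux2 (0.44, SE 0.11, adjusted p = 0.041), a repressor of male-biased genes, whose call was lost without 6 of the 7 arrays taken singly (adjusted p up to 0.111). The count was 2 without KC-DTR replicate 3. Of 13 measured male-biased genes 2 (15.4%) were called lower and 1 (7.69%) higher, with Hsd3b5, a steroid dehydrogenase gene, at 4.68, 4.54 and 5.00 in the WT arrays, 5.61, 5.48 and 5.83 in the KC-DTR arrays and 5.37 in the littermate (-0.83, SE 0.15, adjusted p = 0.008). Cyp4a12a differed by -0.63 (SE 0.12, adjusted p = 0.011), whereas Ugt2b38 had 0.49 (adjusted p = 0.048, and 0.12 without KC-DTR replicate 3). The Cyp4a12a means, 3.69 in WT and 4.31 in the colony, also lay near that of Eif2s3y in the WT arrays. So did the colony means of A1bg (3.99) and Cyp3a44 (3.99), and the sizes of these differences are uncertain too. The male-biased Cyp2d9 (-0.08, CI -0.36 to 0.21) and Slco1a1 (0.13, CI -0.13 to 0.39) were not called.

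Of the X-linked genes that escape inactivation, Eif2s3x was higher in the WT em-KCs by 0.50 (SE 0.10, adjusted p = 0.016) and Ddx3x differed by -0.50 (SE 0.11, adjusted p = 0.02), the latter not called without WT replicate 3, KC-DTR replicate 2 or KC-DTR replicate 3 (adjusted p up to 0.062). Kdm6a (0.35, CI 0.07 to 0.62) and Kdm5c (0.01, CI -0.24 to 0.27) were not called. The Y-linked genes Uty and Kdm5d, which encode histone demethylases, differed by -3.71 (SE 0.19, adjusted p = 7.9e-06) and -2.87 (SE 0.14, adjusted p = 7.9e-06). Of 739 measured genes of chromosome X 70 (9.47%) were called, and of 9 of chromosome Y 3 (33.3%), against 10.9% of all genes.

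Markers of other cells that a sorted gate could hold were examined list by list. No gene of cholangiocytes (6 measured), T, NK and B cells (16), neutrophils (13), dendritic cells (8), erythroid cells and platelets (6) or endothelium (25) was called by limma. Over these lists 0 of 74 genes were called, with 16 of 74 at an unadjusted p under 0.05. Of all 19938 genes, 5571 had such a p-value, so 16 of 74 is no excess. Of the 74 genes 39 (52.7%) had a confidence interval within 1.5-fold, against 68.0% of all genes, so the absence of calls does not show that they were alike. Endothelial genes had differences below 0 in 21 of 25 cases, with a median of -0.33. Those with the lowest differences were Emcn (-1.05, CI -1.85 to -0.26), Bmp2 (-0.76) and Lyve1 (-0.72, CI -1.31 to -0.13), and 5 of the 25 were called lower without WT replicate 1. Without WT replicate 2 or 3, 2 lymphoid genes were called higher, without WT replicate 1 a dendritic cell gene lower, and without WT replicate 2 an erythroid gene higher. Among stellate cell and fibroblast genes 4 of 15 (26.7%) were called higher, against 3.94% of all genes, Dcn (0.89, adjusted p = 0.02), Col1a1 (0.38, 0.032), Pdgfrb (0.38, 0.03) and Reln (0.35, 0.045), none of which kept its call without KC-DTR replicate 1 or without KC-DTR replicate 3, and without WT replicate 2 or 3, KC-DTR replicate 2 or the littermate 1 was called (adjusted p up to 0.06, 0.087, 0.074 and 0.121 in turn).

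Of 10 measured monocyte genes 2 (20%) were higher in WT, against 3.94% of all genes. Fn1, fibronectin, was 8.57, 8.36 and 8.15 in the WT arrays, 6.17, 5.99 and 6.13 in the KC-DTR arrays and 6.33 in the littermate (2.21, SE 0.13, adjusted p = 1.8e-05), and it is made by hepatocytes as well. Cx3cr1, the fractalkine receptor, differed by 0.81 (SE 0.15, adjusted p = 0.0092), while Ccr2, which guides monocytes from the bone marrow, had 0.48 (CI 0.04 to 0.92) and Plac8 -0.21 (CI -0.87 to 0.45), not called.

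Within Kupffer cell identity, 7 of 46 measured genes (15.2%) were called lower and 1 (2.17%) higher, against 6.97% and 3.94% of all genes (median difference -0.01), and 30 had a confidence interval within 1.5-fold. The mean over this list ran from 10.48 to 10.66 in the arrays compared. Of all genes with a mean of 10 and above, 13.8% were called lower, near the share of this list. Bmpr1a, a receptor for bone morphogenetic proteins, was 5.57, 6.13 and 6.26 in the WT arrays, 7.10, 7.13 and 7.04 in the KC-DTR arrays and 6.35 in the littermate. The littermate lay apart from the KC-DTR arrays and close to the WT arrays (-0.91, SE 0.22, adjusted p = 0.03, and 0.086 without KC-DTR replicate 3). The proteoglycan Sdc2 (-0.61, SE 0.12, adjusted p = 0.013), the haemoglobin scavenger receptor Cd163 (-0.57, adjusted p = 0.026, and up to 0.069) and the complement gene C4b (-0.55, adjusted p = 0.043, and up to 0.118) were lower too, the range being over the fits without 1 array. Pcolce2 (-0.50), Clec1b (-0.38) and C6 (-0.34) completed the lower genes, and Scamp5 (0.48) was the higher one. Without KC-DTR replicate 3 the count of lower genes was 2, without WT replicates 1 or 3 or KC-DTR replicate 1 it was 3, without the littermate it was 4, and with housekeeping centring 4 were lower and 2 higher. Cd207, langerin, differed by -0.53 (CI -0.94 to -0.11) and was not called.

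Among 18 transcription factors of Kupffer cells, Nr1h3, the oxysterol receptor LXRα, was 11.18, 10.96 and 10.87 in the WT arrays, 10.52, 10.26 and 10.27 in the KC-DTR arrays and 10.62 in the littermate, and was called higher (0.59, adjusted p = 0.02, and up to 0.063 without 1 array). Spi1, the macrophage factor PU.1, was higher by 0.43 (adjusted p = 0.039, and up to 0.1). Zeb2 differed by -0.59 (SE 0.10, adjusted p = 0.0082) and was called in every fit without 1 array, and Cebpa by -0.38 (adjusted p = 0.032, and up to 0.082). Spic, which is tied to iron handling, differed by -0.07 (CI -0.35 to 0.22) and was not called.

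Lists of cell physiology are given beside the 6.97% lower and 3.94% higher of all genes. By level, the lower share was 9.62% at a mean of 6 to 8, 19.3% at 8 to 10 and 13.8% from 10. Lists at these levels can therefore pass 6.97% without an excess over genes of like level. Of 24 iron and heme genes 5 (20.8%) were lower (2 without KC-DTR replicate 3 and 3 without any other array), led by the heme exporter Flvcr1 (-0.72, SE 0.14, adjusted p = 0.012), and 2 (8.33%) were higher, Hamp and the heme transporter Slc48a1 (0.63, adjusted p = 0.024, and up to 0.065 without 1 array), while Hmox1 (0.01, CI -0.25 to 0.28) and the iron exporter Slc40a1 (0.14, CI -0.11 to 0.39) lay within 1.5-fold. Of the 13 hypoxia genes 1 (7.69%) was higher and 2 (15.4%) lower. Vegfa was the higher gene (0.88, SE 0.11, adjusted p = 0.0014) and the glycolytic Hk2 (-0.79, SE 0.14, adjusted p = 0.0077) and Pgk1 (-0.60, SE 0.11, adjusted p = 0.011) the lower ones. The glucocorticoid-induced genes Errfi1 (0.65) and Ddit4 (0.64) were higher, 2 of 9 (22.2%), but Tsc22d3 (-0.09, CI -0.36 to 0.17) and Fkbp5 (-0.38, CI -0.67 to -0.09) were not called. Of 16 clock genes 2 (12.5%) were lower. Ciart was 5.38, 5.10 and 5.44 in the WT arrays, 6.68, 6.47 and 6.53 in the KC-DTR arrays and 6.53 in the littermate (-1.24, SE 0.11, adjusted p = 3.3e-04) and Clock differed by -0.53 (SE 0.09, adjusted p = 0.0077). The strongly cycling Dbp (0.00, CI -0.21 to 0.21) and Nr1d1 (0.02, CI -0.29 to 0.34) were not called.

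Against the same shares of all genes, the cell cycle list had 3 of 27 genes (11.1%) lower, Mcm6 (-0.85), Top2a (-0.81) and Mki67 (-0.64, SE 0.10, adjusted p = 0.0046), and 1 (3.7%) higher, Ccnb2 (0.82, adjusted p = 0.03, and up to 0.085 without 1 array). Without WT replicate 2 the count of lower genes was 6. Cdk1 had -0.44 (CI -0.79 to -0.09) and Aurkb 0.13 (CI -0.31 to 0.57). Of 24 interferon-stimulated genes 1 (4.17%) was lower, Ifit3 (-1.07, SE 0.16, adjusted p = 0.0035), and without WT replicate 2 the count was 5 and without WT replicate 3 it was 2. In MHC class II 1 of 8 genes (12.5%) was lower, H2-Eb1 (-0.39, adjusted p = 0.047, and up to 0.117), and in oxidative phosphorylation 3 of 23 (13%), with Cycs, cytochrome c, the lowest (-0.79, SE 0.10, adjusted p = 0.0019). The oxidative phosphorylation count was 1 without KC-DTR replicate 1, KC-DTR replicate 3 or the littermate. Ribosomal protein genes (2 of 18 lower, 11.1%) and lysosomal genes (1 of 22 lower, 4.55%) changed sides with the scaling, since with housekeeping centring 3 of each were called higher and 0 lower, and without any array other than WT replicate 1 none was called lower. Lipid efflux had Nr1h3 as its 1 called gene, and cholesterol and fatty acid synthesis (18 genes) and the genes known to differ between C57BL/6 substrains (7 genes) had 0 called by limma, with 3 and 0 at an unadjusted p under 0.05, Nnt among the latter (0.07, CI -0.14 to 0.28). Of all 19938 genes, 5571 had such a p-value.

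**Figure D4:**
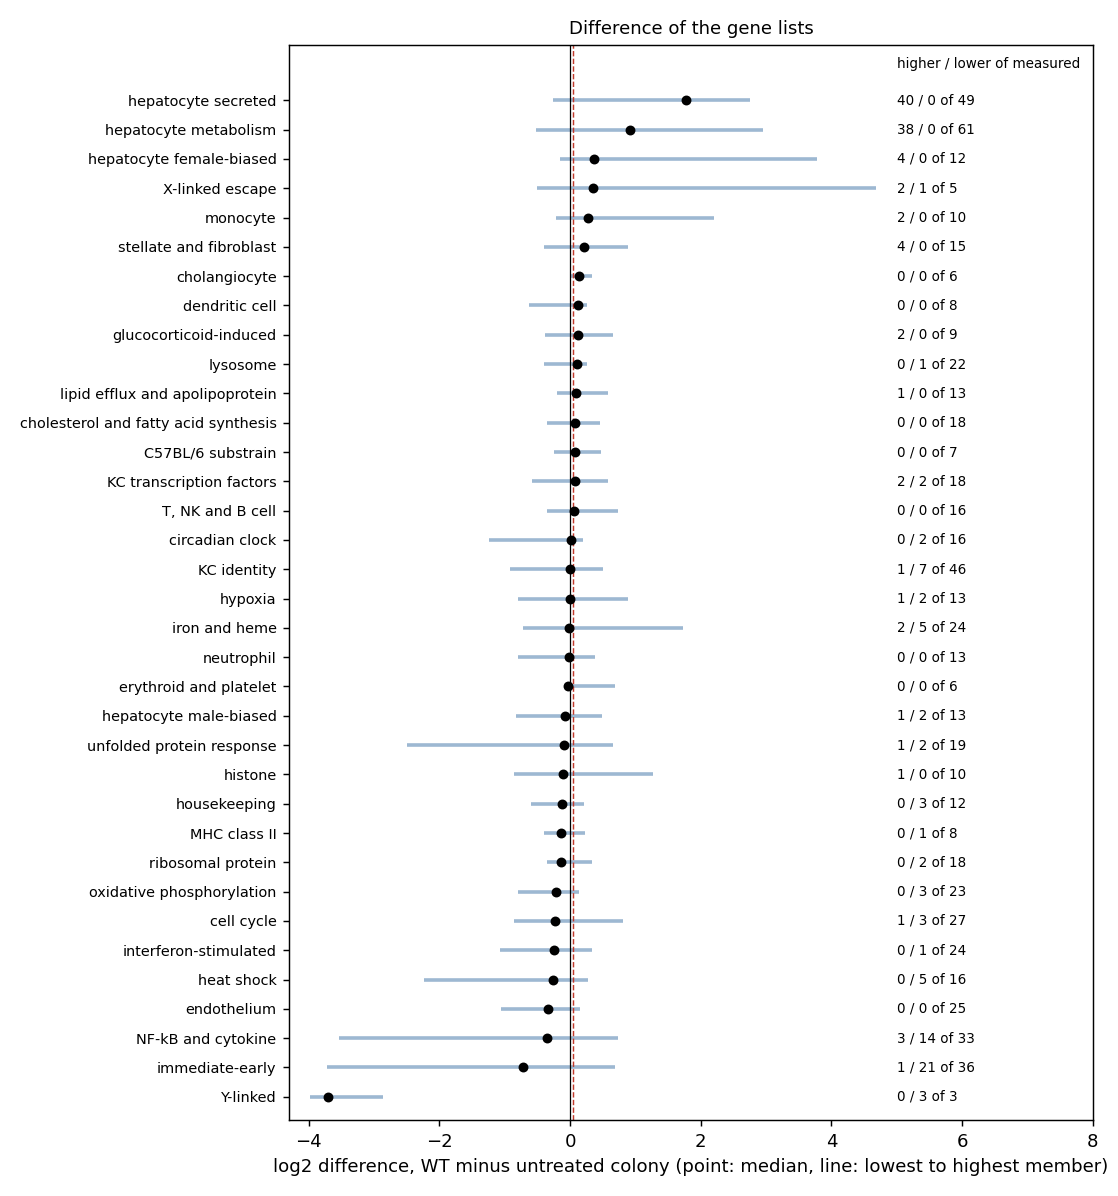
Log2 difference between WT and untreated colony em-KC arrays for 35 gene lists, with the median member as a point, the lowest to highest member as a line, and the numbers called higher and lower of those measured at the right. The dashed line is the median of all genes (0.04). The medians of the hepatocyte secreted, hepatocyte metabolism, Y-linked and immediate-early lists lie farthest from it.

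Outside the lists 680 genes were called higher and 1313 lower. The 15 higher genes with the largest differences were 13 protein-coding genes, mostly known from hepatocytes, and 2 non-coding RNAs. Ces1c, a plasma carboxylesterase, was 10.21, 9.96 and 9.67 in the WT arrays, 7.69, 7.55 and 6.78 in the KC-DTR arrays and 6.23 in the littermate (2.88, SE 0.32, adjusted p = 9.1e-04). The deacetylase Aadac differed by 2.83, the hepcidin relative Hamp2 by 2.62, paraoxonase Pon1 by 2.56, the cortisol carrier Serpina6 by 2.43 and the antitrypsin gene Serpina1d by 2.37. Mug1 and Mug2, which inhibit proteases, differed by 2.19 and 1.94, the glutamine transporter Slc38a3 by 2.00, the fatty acid activator Slc27a2 by 1.87, Ugt3a2 by 1.86, Fgl1 by 1.86 and the thrombin inhibitor Serpind1 by 1.85. Members of such gene families resemble each other and may share probes.

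The 2 non-coding RNAs were RNA polymerase III products. Rpph1, the RNA of RNase P, which trims transfer RNAs, was 13.11, 13.26 and 12.91 in the WT arrays, 10.99, 11.23 and 10.77 in the KC-DTR arrays and 11.31 in the littermate (2.02, SE 0.15, adjusted p = 8.0e-05). Rmrp, the RNA of the related RNase MRP, was 11.76, 11.03 and 10.72 in the WT arrays, 9.45, 9.19 and 9.04 in the KC-DTR arrays and 9.30 in the littermate (1.93, SE 0.22, adjusted p = 9.8e-04). Chosen after their values were seen, the other RNase P genes Rprl2 (1.53) and Rprl1 (1.32) and the telomerase RNA Terc (1.03) were called higher as well. So were the U3 gene Rnu3a (1.34), Scarna13 (1.08) and the 7SK RNA Rn7sk (0.44). Not all small RNA genes were higher. By RefSeq class, 2 of 7 small nuclear RNA genes were higher and 0 lower, with differences from -0.96 to 1.34. Of 3 guide RNA genes 1 was higher, and of 2 Y RNA genes 0, against 3.94% of all genes. Messengers of replication-dependent histones, which end in a stem-loop in place of a poly(A) tail, included higher genes too, with H4c4 the 1 called gene of 10 on the histone list. H4c4 was 11.81, 12.28 and 12.02 in the WT arrays, 10.93, 10.82 and 10.63 in the KC-DTR arrays and 10.72 in the littermate (1.26, SE 0.13, adjusted p = 6.0e-04). Of 7 measured H4 genes, whose coding sequences are near-identical, 5 (71.4%) were higher and 0 lower, up to 1.52 for H4c6. The shares of all genes were 3.94% and 6.97%. The histone list as a whole had 1 of 10 genes (10%) higher, a median difference of -0.11 and 5 genes below 0.

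The 15 lower genes with the largest differences began with 5 small nucleolar RNAs (snoRNAs), most of which guide the modification of ribosomal RNA, and which lie mostly within introns of host genes. Snora31 was 6.34, 5.25 and 4.24 in the WT arrays, 8.70, 8.83 and 8.29 in the KC-DTR arrays and 8.11 in the littermate (-3.20, SE 0.40, adjusted p = 0.0018). Snord14e was 8.04, 9.69 and 7.81 in the WT arrays, 10.71, 11.19 and 11.50 in the KC-DTR arrays and 11.25 in the littermate (-2.65, SE 0.39, adjusted p = 0.0037). The WT arrays spread widely for both. That the arrays of the 2 sides did not overlap was a condition for naming these 15 lower genes and the 15 higher ones, and is no result. Snord82 differed by -2.49 (SE 0.23, adjusted p = 3.5e-04), Snora75 by -2.45 (SE 0.27, adjusted p = 9.2e-04) and Snord118 by -2.02 (SE 0.35, adjusted p = 0.0074). Of all 53 measured snoRNA genes 8 (15.1%) were lower and 1 (1.89%) higher, Snora73a (0.91), against 6.97% and 3.94% of all genes, and their median difference was -0.15.

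The remaining lower genes were Mir142, the precursor gene of a microRNA of blood cells (5.09, 4.84 and 4.98 in the WT arrays, 6.41, 7.18 and 7.11 in the KC-DTR arrays and 6.39 in the littermate, -1.81, SE 0.21, adjusted p = 0.0011), the long non-coding RNA gene Gdap10 (-1.76) and 8 protein-coding genes. Trps1, a GATA-type repressor, was 6.79, 6.85 and 7.42 in the WT arrays, 8.93, 8.80 and 9.28 in the KC-DTR arrays and 8.96 in the littermate (-1.97, SE 0.17, adjusted p = 2.5e-04). Trrap, a large scaffold of histone acetyltransferase complexes, differed by -1.89 (SE 0.16, adjusted p = 2.5e-04), the Polycomb gene Phc3 by -1.71 (SE 0.31, adjusted p = 0.0095), the splicing-related Txnl4b by -1.61 (SE 0.11, adjusted p = 6.2e-05) and Ifrd1, which is induced by growth factors and stress, by -1.55 (SE 0.16, adjusted p = 5.4e-04). Hilpda, a lipid droplet protein gene, differed by -1.49, the palmitoyltransferase gene Zdhhc17 by -1.46 and Mphosph6 by -1.46.

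The called lower genes tended to be long genes. Protein-coding genes with a mean of at least 6 on the log2 scale were ordered by the genomic span of their RefSeq record and divided into 5 equal classes, a division chosen after the data were seen. The share called lower was 10.3% in the shortest class, with a median span of 4.22 kb, then 10%, 11.9% and 14.2%, and 19.3% in the longest, with a median span of 108 kb. The share called higher went the other way, from 6.82% to 1.83%. The median difference was -0.02, -0.04, -0.08, -0.12 and -0.21 from the shortest to the longest class. These are descriptions with no test. Centring the arrays on other genes shifts the median differences of all classes alike and leaves their order. The shares called in each class were not counted under another centring. By level, 0.856% of genes with a mean of 4 to 6 were called lower, 9.62% at 6 to 8, 19.3% at 8 to 10 and 13.8% at 10 and above. Level was not held constant across the span classes, nor in the shares of all genes given beside the lists.

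**Figure D5:**
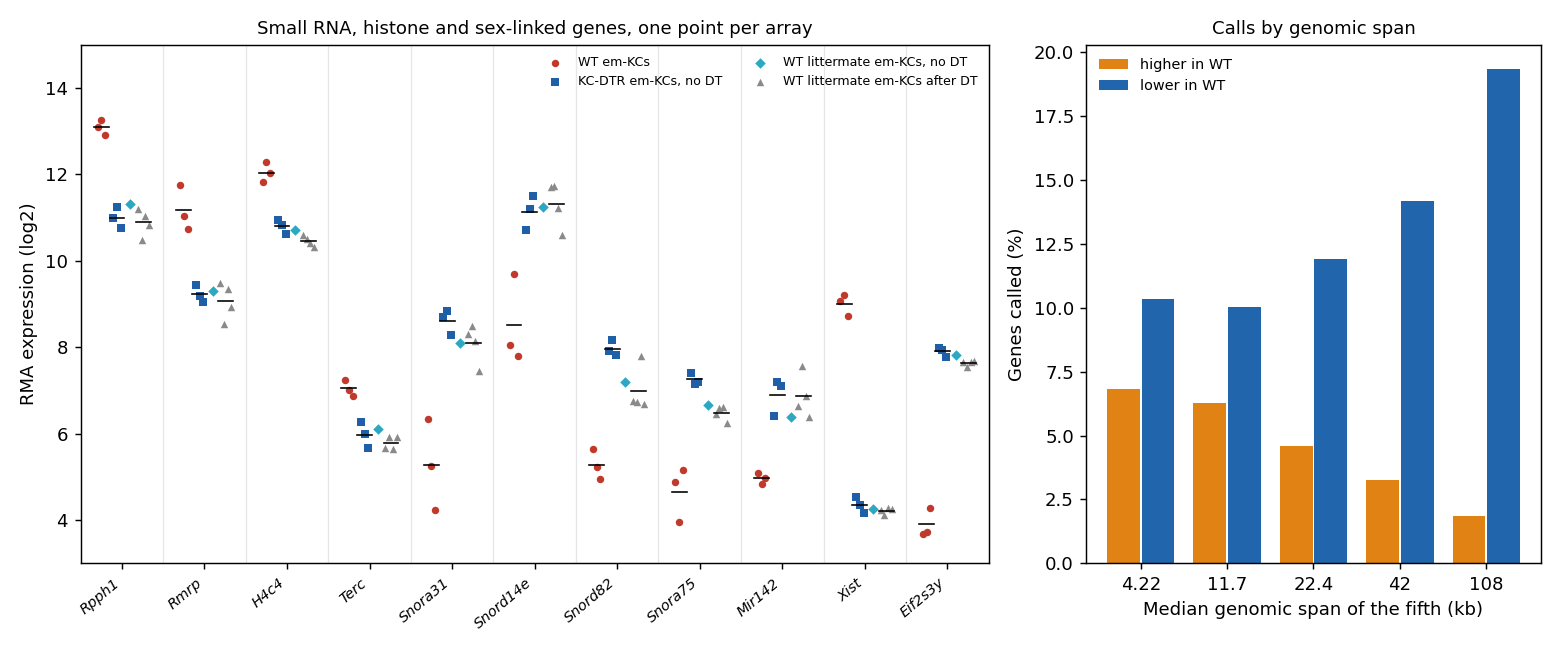
Left, RMA expression (log2) of small RNA, histone and sex-linked genes, 1 point per array, with the group mean as a line where a group has over 1 array. Right, percent of genes called higher (orange) and lower (blue) in WT em-KCs for 5 classes of protein-coding genes by genomic span, where lower calls go from 10.3% in the shortest to 19.3% in the longest.

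The WT arrays were set against a second part of the colony, the 4 em-KC arrays of WT littermates 15 or 30 days after 50 ng DT, which do not carry the receptor and keep their em-KCs. The same WT arrays enter both comparisons, so their values stand side by side. Against these littermates 2383 genes were called (12.0%), 810 higher (4.06%) and 1573 lower (7.89%) in WT. Fosb was 9.98 ± 0.50 (SD, n = 4) in the DT-treated littermates, a difference from WT of -3.39 (adjusted p = 1.7e-04, limma) beside -3.72 for the untreated colony. Egr1 differed by -2.73 beside -3.24, Cxcl2 by -3.15 beside -3.55 and Hspa1a by -2.57 beside -2.24. Tnf, with 8.16 ± 0.15 (SD, n = 4) in the DT-treated littermates, differed by -0.70 (adjusted p = 0.0062) beside -1.33. Of the 122 named genes called against the untreated colony, 17 were not called against these littermates. Among them were Il10 (-0.71, adjusted p = 0.061, beside -1.21), Ciart (-0.56, 0.109, beside -1.24), Snord118 (-1.10, 0.072, beside -2.02), Cx3cr1 (0.38, 0.288, beside 0.81) and C4b (-0.13, 0.562, beside -0.55). Of Kupffer cell identity 3 genes were lower and 0 higher, beside 7 and 1, and of male-biased genes 0 and 0, beside 2 and 1. Of the immediate-early list 16 genes were lower and 2 higher than in the littermates, beside 21 and 1.

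For hepatocyte genes, Alb was 10.83 ± 0.37 (SD, n = 4) in the DT-treated littermates and differed from WT by 1.66 (adjusted p = 8.6e-04) beside 2.05 for the untreated colony, Ahsg by 2.24 beside 2.76 and Cyp1a2 by 2.39 beside 2.95. Over both hepatocyte lists 75 genes were higher and 1 lower, beside 78 and 0. Cyp2b9 differed by 3.49 beside 3.78, Rpph1 by 2.21 beside 2.02 and Snora31 by -2.82 beside -3.20. Without day 15 replicate 1 or 2 or day 30 replicate 1 or 2 of these littermates, 1415, 1342, 1494 and 1397 genes were called in place of 2383.

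Between the untreated colony em-KCs and the DT-treated littermate em-KCs limma called 0 of 19938 genes (0.0%), and limma with a trended, robust variance also called 0. Of these genes 1094 had an unadjusted p under 0.05 by limma, near the share that this threshold passes where nothing differs. Between WT and the untreated colony 5571 genes had one. In the 5 classes by span the median difference between these colony groups lay between -0.02 and 0.00355.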

How the data were processed

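The authors normalised 19 Affymetrix arrays by RMA (background correction, quantile normalization and probeset summary) and deposited log2 expression values, with no version of RMA stated. The log2 values deposited by the authors were used unchanged, every value column matched 1 sample title, and no column of the authors' own comparisons was used. Quantile normalization gives all arrays 1 distribution, so a change common to most genes is not seen, and the number of arrays limits the precision.

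Of 35556 probesets, 21789 carry 1 gene symbol, and the one with the highest mean over the 19 arrays was kept for each of 19938 genes, 19856 of which matched a RefSeq record. Groups came from the sample titles. Differences were tested with limma 3.58.1 in R 4.3.3 (lmFit and eBayes, two-sided, Benjamini-Hochberg over all genes, called at an adjusted p under 0.05) on the 7 arrays compared, after the script was tested on simulated data. SE, 95% confidence intervals and folds are from that fit, and "higher" and "lower" refer to called genes. Tables and plots were made with Python 3.11.15, pandas 2.3.3, numpy 2.4.6 and matplotlib 3.10.9.

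The 35 gene lists hold 725 entries, of which 654 were measured, and some genes are in several lists. The comparison, its members and the lists were chosen with earlier results of these data known. Named genes were the called genes of each list with the largest differences, up to 8 in the immediate-early, cytokine and both hepatocyte lists and up to 4 in the others, a set of markers, and the 15 largest in each direction outside the lists that did not overlap. Other members are named to describe their list. The families of small RNAs and histones, the classes by span and the count without chromosomes X and Y were chosen after the data were seen. The alternatives were other samples in the fit, other colony arrays, the mean of all probesets, a minimum mean of 6, 2 centrings, limma with trend and robust, a t-test, stricter thresholds, a replicate block and leaving out each array. Near-identical genes (Hspa1a and Hspa1b, Hamp and Hamp2, Mug1 and Mug2, the H4 histones, Serpina1 and Cyp2d families) may share probes. The same replicate number did not pair WT and KC-DTR arrays.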

Additional observations from a re-analysis of the deposited data

Results flagged for a closer look

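In the 4 untreated colony arrays, 1 array stood apart from the other 3 in 9 of 131 named genes (6.87%) and 3 of 37 list means (8.11%, the lists with both hepatocyte lists together and all genes), by the gap to its nearest neighbour as a share of the group's range (Dixon's ratio). Chance gives such a gap in about 1 in 20 groups. KC-DTR replicate 2 was the highest array for Fosb (ratio 0.923), Jun (0.863), Egr2 (0.850), Cebpa (0.861) and Aadac (0.900). KC-DTR replicate 3 was the highest for Pdgfrb (0.918) and the lowest for Ces1d (0.842) and for the mean of the stellate cell and fibroblast list (0.857). KC-DTR replicate 1 was the highest for Ugt2b38 (0.901) and for the mean of the circadian clock list (0.874). The untreated littermate was the lowest for Bmpr1a (0.881) and the highest for the mean of the endothelial list (0.848).

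Probesets that the report did not use differed as well. Of 12146 probesets with no gene symbol, 673 (5.54%) were called by limma between the WT and untreated colony arrays, 309 higher and 364 lower in WT. Of 1621 with several symbols, 113 (6.97%) were called, 67 higher and 46 lower. The probesets with 1 symbol, tested in the same fit, gave 1465 of 21789 (6.72%).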

How the results depend on the processing

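None of the 122 named genes that were called changed sign under any alternative tried, while 5 of the 9 not called, with differences of -0.03 to 0.12, did (Adgre1, Clec4f, Csf1r, Mmrn1 and Timd4). Against the untreated colony, the count of 2174 genes became 1440 with the KC-DTR arrays alone, 194 with the littermate alone, 4556 with all 8 colony em-KC arrays, 1025 by a t-test with Benjamini-Hochberg adjustment, 699 at an adjusted p under 0.01 and 1163 with a fold of at least 1.5. With the replicate block, set on WT and KC-DTR arrays whose numbers do not pair them (correlations of their deviations -0.02, 0.004 and -0.03), it was 833. Leaving out 1 array gave 1116 to 1985, the lowest without KC-DTR replicate 3, and without chromosomes X and Y, an alternative chosen after seeing the data, it was 2101. The 21 lower immediate-early genes were 13 by the t-test, 16 with the replicate block and 17 to 20 without 1 array. The 78 higher hepatocyte genes were 71 with the block and 72 to 79 without 1 array. Against DT-treated littermates the count of 2383 was 1178 by the t-test and 1342 to 2288 without 1 array. The colony comparison had 0 calls in all settings. The causes were not tested.

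Of 122 named genes called, 97 kept the call without any 1 array and 25 lost it in at least 1 such fit. With the replicate block 30 lost it, by the t-test 36 and with housekeeping centring 9. That centring turned 36.1% of calls higher in WT into 71.1%, and centring on the array median gave 26.8%. With 3 and 4 arrays the median half-width of a confidence interval was 0.28, which limits what was detectable.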

Other observations

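The 5 mo-KC arrays of KC-DTR mice 30 days after DT, which enter no comparison here, held both sex-linked patterns. Xist was 4.2, 4.11, 9.51, 9.04 and 9.35 in replicates 1 to 5, so that 2 arrays had the level of the colony em-KCs and 3 that of the WT em-KCs. In the same order Fosb was 10.65, 10.26, 8.07, 6.84 and 6.67, Alb 9.55, 9.57, 10.29, 11.56 and 11.34 and Cyp2b9 4.02, 4.07, 5.22, 6.47 and 7.82. Rpph1 was 10.77, 10.91, 11.12, 11.33 and 11.66 and Fn1 6.06, 6.11, 6.55, 6.90 and 7.08. These genes are examples and did not all step with Xist. Alb in replicate 3 lay within the untreated colony arrays (9.76 to 11.08). Rpph1 and Fn1 in replicates 3 to 5 lay nearer the colony arrays (up to 11.31 and 6.33) than the WT arrays (from 12.91 and 8.15). Other genes did not step with Xist either, and how many was not counted. Ifit3 was 10.93, 11.27, 11.32, 10.94 and 11.05, beside means of 10.01 in WT and 11.09 in the untreated colony. Mcm6 was 8.33, 8.28, 8.29, 8.14 and 8.24, beside means of 7.24 and 8.09.

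Of 297 measured microRNA genes 8 were called higher and 3 lower in the WT em-KCs, and of 675 long non-coding RNA genes 23 and 17, beside 736 and 1353 of 18553 protein-coding genes. The shares of all genes were 3.94% higher and 6.97% lower. Level was not held constant between these classes, and of genes with a mean of 4 to 6 only 0.856% were called lower.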
